A study of Mus musculus with 6 samples.

Results

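The aminoacyl-tRNA synthetases, the enzymes that join each amino acid to its tRNA, were examined in mouse blood progenitors with the leukaemia fusion MLL-ENL. The family was chosen with earlier results of these data known. Its genes were then taken by symbol, as protein-coding genes named for a cytosolic or a mitochondrial synthetase, and 37 of 55471 gene IDs met that rule. Of these, 21 encode cytosolic enzymes and 16 encode mitochondrial enzymes, whose symbols end in 2. Tarsl2, a second threonyl-tRNA synthetase gene, also ends in that digit and was counted with the cytosolic enzymes. Gars and Kars, for glycine and lysine, each encode both the cytosolic and the mitochondrial enzyme from a single gene and were counted as cytosolic. The methionine enzyme of mitochondria, Mars2, carried a date in place of its symbol in the deposited table, so the rule did not reach it, and its values are given separately.

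Cells with LIN28B had the genotype LIN28B*MLL-ENL (L28BME) and were set against cells with MLL-ENL without LIN28B (ME), with 3 libraries each. Both groups were GMLPs, progenitors of granulocytes, monocytes and lymphocytes, which were sorted from bone marrow and kept in culture with DOX (doxycycline) for 3 days, so the fusion and the drug were common to both. LIN28B, which fetal blood cells express, binds RNA and prevents let-7 precursors from becoming mature microRNAs. The comparison asks what LIN28B changes in cells that carry the fusion. The sources used here give neither the promoters that drive the transgenes nor the age of the mice. Nor do the labels state if each replicate was a separate mouse or culture, so the spread behind every p-value is that of these libraries and could be technical.

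Every synthetase recognises its amino acid and the matching tRNAs and builds the charged tRNA that the ribosome uses. Cytosolic and mitochondrial protein synthesis draw on largely separate sets of these enzymes, all of them encoded in the nucleus. When charged tRNA runs short, the kinase GCN2 phosphorylates eIF2alpha, translation of most mRNAs drops and translation of the transcription factor ATF4 increases. ATF4 then raises transcription of genes for amino acid synthesis and transport and of many cytosolic synthetases, a program called the amino acid response. It binds composite elements that join a C/EBP to an ATF motif.

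Levels were deposited as TPM, a transcript abundance scaled for transcript length and for the total of each library. Genes can therefore be compared with each other, but the sequencing depth is unknown. Between 13228 and 13288 genes reached 1 TPM in the L28BME libraries and between 13215 and 13240 did in the ME libraries. Lin28b was at 11.2, 11.7 and 11.9 TPM in L28BME and listed at 0 in each ME library. These are values of the mouse gene model and cannot tell endogenous from introduced transcripts. Among the sort markers, Kit lay at 73.2 to 88.4 TPM in L28BME and 76.5 to 106 TPM in ME. Ly6a, which encodes Sca1, lay at 1.38 to 3.18 TPM in L28BME and 9.64 to 11.8 TPM in ME, low for a marker the cells were sorted on. It was called lower in L28BME (log2 fold change -1.96, limma adjusted p = 0.00376). Cd48 was at 228 ± 2.24 TPM in L28BME and 297 ± 5.29 TPM in ME and Cd34 at 440.2 ± 3.76 TPM in L28BME and 506 ± 3.71 TPM in ME, both called lower (limma adjusted p = 8.90e-04 and 0.00385). Flt3, a receptor of lymphoid-primed progenitors, was called higher, at 187 ± 2.10 TPM in L28BME and 96.6 ± 3.96 TPM in ME (limma adjusted p = 1.60e-04). The summed TPM of 5 granulocyte genes was 63.1 to 69.9 in L28BME and 35.3 to 37.3 in ME. Most of that difference came from Ngp, at 36.2 ± 2.06 TPM in L28BME and 14.5 ± 0.578 TPM in ME, whereas Cd177 was lower, at 0.488 ± 0.223 TPM in L28BME and 2.42 ± 0.655 TPM in ME (limma adjusted p = 0.0133). The summed TPM of 3 megakaryocyte genes was 112 to 126 in L28BME and 76.3 to 79.3 in ME. The summed level of 3 macrophage genes was 6.02 to 8.99 TPM in L28BME and 5.36 to 5.93 TPM in ME, with C1qa at 0. Genes of B cells, T cells and erythroid cells, 3 for each type, summed to at most 3.11 TPM in any library, with Cd3e at 0 throughout. Of 3 genes read for stroma, Col1a1 and Col1a2 lay under 1 TPM in each library. The third, Pecam1, was called lower, at 113 ± 2.45 TPM in L28BME and 163 ± 0.668 TPM in ME (limma adjusted p = 4.63e-04). The part of such shifts in cell composition in the results that follow was not tested, and in bulk RNA fewer cells of a type and less RNA per cell cannot be told apart.

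Several cytosolic synthetase genes were called higher in L28BME than in ME, and no mitochondrial one was called higher. Of the 37 genes, all of which entered the test, 9 were higher in L28BME, 1 was lower and 27 missed the threshold, an adjusted p under 0.05 by limma on log2(TPM + 1) after Benjamini-Hochberg correction over 13348 genes. By the same test 8.28% of all genes tested were higher and 6.60% were lower. The 9 higher genes were all cytosolic, 9 of 21, and the lower one was Cars2, 1 of 16 mitochondrial genes. The median log2 fold change was 0.18 over the cytosolic genes and -0.03 over the mitochondrial genes, against 0.0033 over all genes tested. The fold change was positive for 19 of the 21 cytosolic genes and for 6 of the 16 mitochondrial genes. Mitochondrial genes were less abundant, with a median of mean TPM in L28BME of 31.8 against 191 for cytosolic genes. Fars2 and Rars2 of the mitochondria had log2 fold changes of 0.50 (SE 0.14) and 0.21 (SE 0.057) without a call. The part of abundance and spread in the difference in calls between the classes was not tested. The TPM of the L28BME libraries did not overlap those of the ME libraries for 15 of 21 cytosolic and 6 of 16 mitochondrial genes, where 36.7% of all genes tested had no overlap. With an unadjusted p under 0.05, 13 cytosolic genes were higher and 1 was lower, and 2 mitochondrial genes were higher and 2 lower. At that threshold 16.0% of all genes tested were higher and 13.7% were lower, so the mitochondrial counts were near the background. With 1 library left out, between 4 and 9 cytosolic genes were called: 7, 5 and 9 without L28BME replicates 1, 2 and 3, and 4, 7 and 5 without ME replicates 1, 2 and 3. Over all genes tested 617 to 693 were then called higher, where 1105 were with all libraries.

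**Figure D1:**
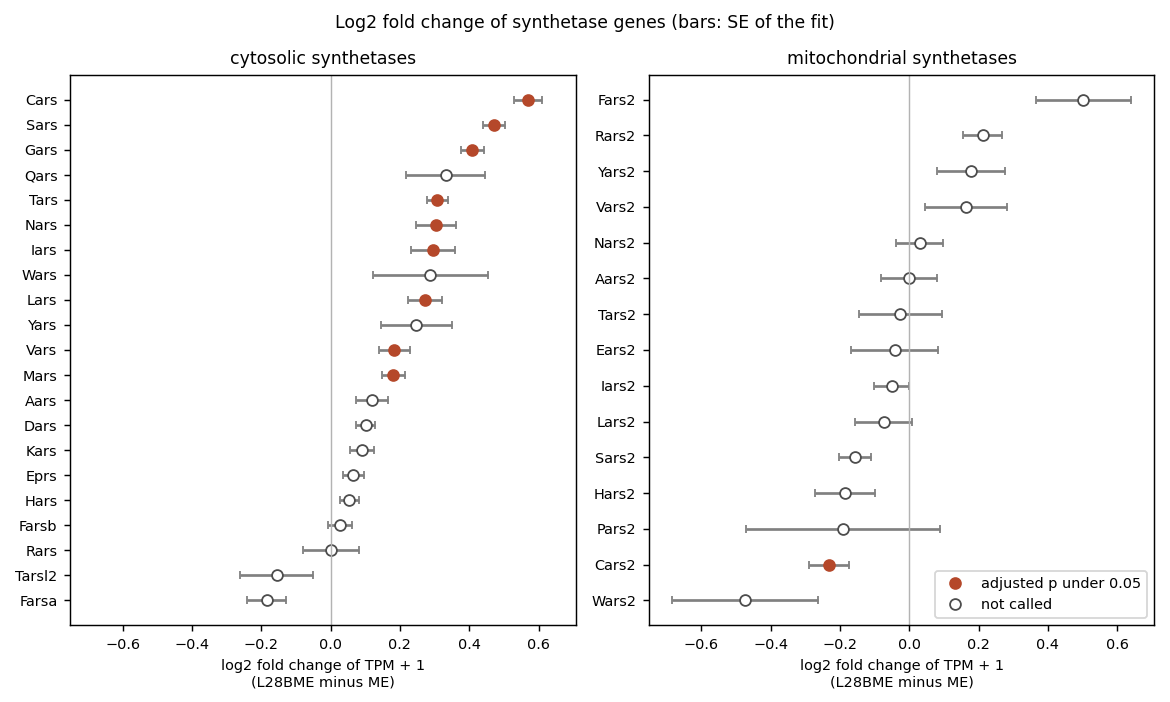
Log2 fold change of TPM + 1 (L28BME minus ME) of the 21 cytosolic and 15 of the 16 mitochondrial synthetase genes, with the SE of the limma fit as bars. Filled points mark adjusted p under 0.05: 9 cytosolic genes lie right of 0 and Cars2, of the mitochondria, lies left of it.

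Summed over the class, the cytosolic genes made up 4476, 4476 and 4399 TPM in L28BME replicates 1, 2 and 3, and 3802, 3899 and 3846 TPM in ME replicates 1, 2 and 3. The mitochondrial genes summed to 544, 548 and 538 TPM in L28BME and to 538, 531 and 554 TPM in ME. The cytosolic sums did not overlap between groups and the mitochondrial sums did. The ratio of the sums was 8.19 ± 0.0301 in L28BME and 7.12 ± 0.208 in ME (mean ± SD, n = 3 each, as in the means that follow). Levels differed widely within each class: mean TPM ran from 14.3 to 464 in L28BME and from 16.2 to 375 in ME among cytosolic genes, and from 4.97 to 77.9 in L28BME and from 7.10 to 80.6 in ME among mitochondrial genes. RNA encoded by the mitochondrial genome made up 4.49 to 4.85% of the TPM in L28BME and 4.12 to 4.35% in ME.

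The largest fold change among the called synthetases was that of Cars (ENSMUSG00000010755, chromosome 7, GRCm38 positions 143557230 to 143600090, minus strand), which charges cysteine tRNA. Its level was 146, 143 and 153 TPM in L28BME replicates 1, 2 and 3, and 102, 97.9 and 96.9 TPM in ME replicates 1, 2 and 3. The lowest L28BME library lay well above the highest ME library, and the means were 147 ± 5.24 TPM in L28BME and 98.9 ± 2.72 TPM in ME (log2 fold change 0.57, SE 0.040, limma adjusted p = 8.36e-04). Sars, the serine enzyme (ENSMUSG00000068739, chromosome 3, positions 108424865 to 108445209, minus strand), was at 179, 173 and 171 TPM in L28BME and at 125, 124 and 127 TPM in ME. The groups were again far apart beside their spread, at 174 ± 4.18 TPM in L28BME and 126 ± 1.68 TPM in ME (log2 fold change 0.47, SE 0.032, limma adjusted p = 7.21e-04). Gars, the glycine enzyme (ENSMUSG00000029777, chromosome 6, positions 55038007 to 55079500, plus strand), stood at 472, 474 and 446 TPM in L28BME and at 349, 352 and 346 TPM in ME. With Nars it was the most abundant synthetase mRNA in L28BME, and it rose to 464 ± 15.8 TPM there against 349 ± 3.46 TPM in ME (log2 fold change 0.41, SE 0.033, limma adjusted p = 0.00114). Tars, the threonine enzyme, was at 137, 140.1 and 134 TPM in L28BME and at 110.4, 111 and 109.8 TPM in ME, a narrow spread on both sides (log2 fold change 0.31, SE 0.031, limma adjusted p = 0.00245). Cars, Sars, Gars and Tars kept their calls without any 1 of the 6 libraries, at limma adjusted p of at most 0.0146.

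The other 5 called cytosolic genes changed less, and each lost its call in at least 1 of the fits that left out a library. Such fits also called fewer genes over the whole table, 617 to 693 higher, where 1105 were with all libraries. Nars, which charges asparagine tRNA, was at 443, 452 and 496 TPM in L28BME and at 359.8, 368 and 398 TPM in ME. Replicate 3 was the highest of each group, and the groups did not overlap (log2 fold change 0.30, SE 0.059, limma adjusted p = 0.0216). Iars, the isoleucine enzyme, was at 308, 282 and 259 TPM in L28BME, a wide spread, and at 228, 229 and 232 TPM in ME (log2 fold change 0.30, SE 0.064, limma adjusted p = 0.0303). Lars, which charges leucine tRNA and also acts as a leucine sensor for the growth kinase mTORC1, was at 203, 187 and 181 TPM in L28BME and at 157, 160.4 and 155 TPM in ME (log2 fold change 0.27, SE 0.048, limma adjusted p = 0.0167). Each Lars value in L28BME lay above each value in ME. Vars, the valine enzyme, was at 191, 193 and 208 TPM in L28BME and at 170.02, 170.09 and 180.3 TPM in ME (log2 fold change 0.18, SE 0.046, limma adjusted p = 0.0472). Mars, the methionine enzyme, which also charges the initiator tRNA, was at 181, 181 and 177 TPM in L28BME and at 155, 163 and 156 TPM in ME (log2 fold change 0.18, SE 0.032, limma adjusted p = 0.0169). The differences for Vars and Mars were small, 13.7% and 13.4% of the ME mean, but the groups did not overlap for either gene. Vars lost its call without any 1 library (limma adjusted p 0.0661 to 0.135), while its log2 fold change stayed between 0.15 and 0.21. Iars lost it without L28BME replicate 2 or any ME replicate and Mars without L28BME replicates 1 or 2 or ME replicates 1 or 3, with limma adjusted p of up to 0.0896 for Iars and 0.0623 for Mars. Nars lost its call without L28BME replicate 2 or ME replicates 1 or 2 and Lars without ME replicates 1 or 3, with limma adjusted p of up to 0.0741 for Nars and 0.0612 for Lars. Mars shares 68 exonic bases on the opposite strand with Ddit3, and it is unknown here if the authors' quantification used strand.

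**Figure D2:**
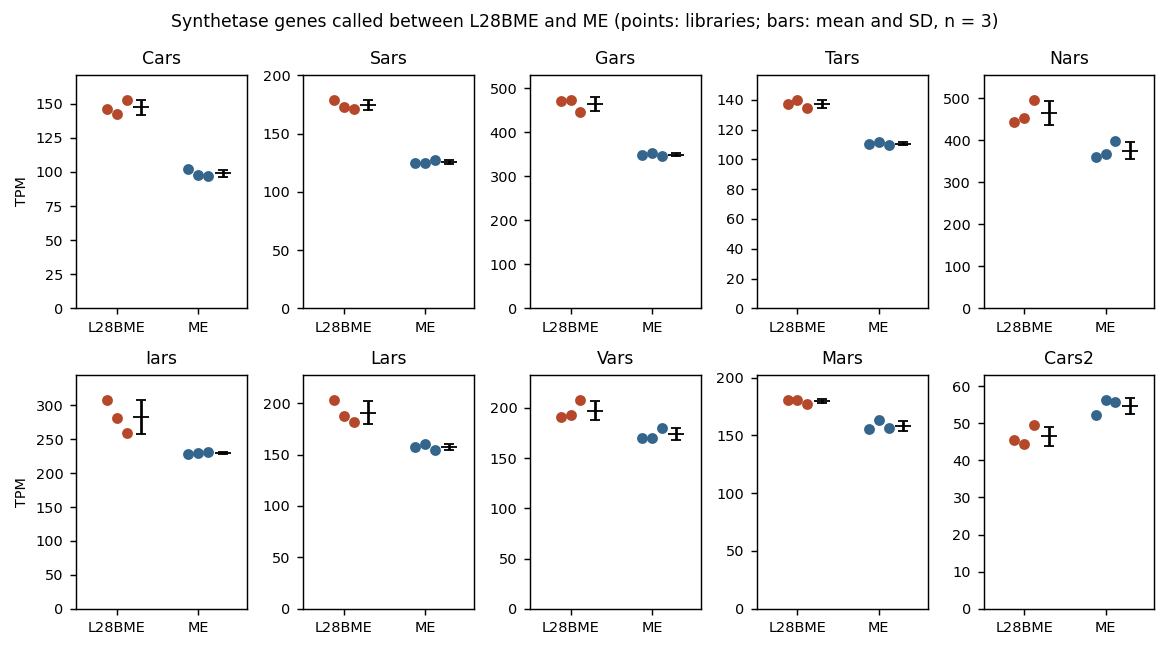
TPM of the 10 called synthetase genes in each library (points; bars show mean and SD, n = 3), with L28BME left and ME right on axes that start at 0. The 9 cytosolic genes lie higher in every L28BME library than in any ME library, and Cars2 lies lower.

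Of the 12 cytosolic genes that were not called, Qars, Wars and Yars had mean differences as large as some called genes but wider spread. Qars, which charges glutamine tRNA, was at 286, 313 and 235 TPM in L28BME and at 209, 239 and 211 TPM in ME (log2 fold change 0.33, limma adjusted p = 0.112). L28BME replicate 3 fell within the range of ME, and without that library Qars passed the test (limma adjusted p = 0.0313). Yars, the tyrosine enzyme, was at 204, 197 and 204 TPM in L28BME and at 154, 201 and 158 TPM in ME. ME replicate 2 reached the level of L28BME, so the test was not passed (log2 fold change 0.25, limma adjusted p = 0.172), but without it Yars was higher (limma adjusted p = 0.00837). Wars, the tryptophan enzyme, which interferon gamma induces, was at 95.2, 59.0 and 70.2 TPM in L28BME and at 58.7, 59.1 and 61.9 TPM in ME (log2 fold change 0.29, limma adjusted p = 0.306). L28BME replicate 2 lay within the range of ME and replicate 1 far above it.

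Kars, the third most abundant cytosolic gene, was at 297, 297 and 314 TPM in L28BME and at 280.4, 280.5 and 291 TPM in ME (log2 fold change 0.09, limma adjusted p = 0.148). Small positive values that did not pass the test were also found for Dars (aspartate, log2 fold change 0.10), Eprs (the fused glutamate and proline enzyme, 0.07), Hars (histidine, 0.05) and Farsb (0.03), and Rars (arginine) was at 0.00. Farsa and Farsb encode the alpha and beta subunits of the cytosolic phenylalanine enzyme. Farsa was at 185, 185 and 201 TPM in L28BME and at 215, 229 and 205 TPM in ME, with no overlap but without a call (log2 fold change -0.18, limma adjusted p = 0.0795). Tarsl2, the least abundant cytosolic gene at 14.3 ± 0.457 TPM in L28BME and 16.2 ± 2.35 TPM in ME, was not called either (log2 fold change -0.16). Aars, the alanine enzyme, was at 144 ± 4.68 TPM in L28BME and 133 ± 6.07 TPM in ME (log2 fold change 0.12, limma adjusted p = 0.150). It shares 1326 exonic bases on the same strand with Exosc6, a gene of the RNA exosome, and the authors' counting could divide reads between the pair. Summed over both gene models the level was 181, 148 and 146 TPM in L28BME and 134, 127 and 138 TPM in ME, which did not pass the test (log2 fold change 0.24, limma adjusted p = 0.126). Aars alone was at 139, 148 and 146 TPM in L28BME and at 134, 126 and 138 TPM in ME. The larger difference of the sum thus came from L28BME replicate 1.

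All called cytosolic genes belonged to the part of the set that the amino acid response is known to induce. Of the 13 cytosolic synthetases on a list of amino acid response genes, 9 were higher and none was lower, with a median log2 fold change of 0.29 and a positive value for all 13. Of the other 8 cytosolic genes none was called, with a median of 0.04, against 8.28% higher and a median of 0.0033 over all genes tested; at an unadjusted limma p under 0.05, 3 of these 8 were higher and 1 was lower (16.0% and 13.7% of all genes tested). The list was drawn up with earlier results of these data known and is no independent evidence of its direction. Its synthetases summed to 2943, 2873 and 2886 TPM in L28BME and to 2337, 2401 and 2384 TPM in ME. The other cytosolic genes summed to 1533, 1603 and 1513 TPM in L28BME and to 1465, 1498 and 1462 TPM in ME, so the groups lay apart by a smaller margin. Without any 1 library the 9 calls became 4 to 8: 7, 5 and 8 without L28BME replicates 1, 2 and 3, and 4, 7 and 5 without ME replicates 1, 2 and 3. The higher calls over all genes tested also fell, from 1105 to between 617 and 693.

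Grouped by structure, the calls were spread over both kinds of catalytic fold. Of 9 cytosolic class I enzymes 5 were higher (median log2 fold change 0.27), and of 11 class II genes 4 were higher (0.10), with Eprs, which holds a domain of each class, set aside. Within the multi-synthetase complex, the assembly that gathers several cytosolic enzymes on scaffold proteins, 3 of 8 enzyme genes were higher (Iars, Lars and Mars, median 0.14). Outside it 6 of 13 were higher (median 0.25). Over all genes tested 8.28% were higher and the median log2 fold change was 0.0033. Differences between these groups of synthetases were not tested. The scaffold genes were not called: Aimp1 was at 116 ± 5.91 TPM in L28BME and 130.4 ± 6.84 TPM in ME (log2 fold change -0.16, limma adjusted p = 0.111), Aimp2 had a log2 fold change of -0.16 and Eef1e1 one of 0.08.

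Promoters of the synthetases were read for the composite element of the amino acid response because several members moved together with its target genes. The sequences are RefSeq promoters on GRCm38.p6, 300 bases each, 250 before the start site and 50 from it, written 5′ to 3′ on the strand of the gene. The motif searched was TGATGNAA on both strands, and capitals mark each match. Gars, Iars and Tars are shown as called synthetases with a match, Asns as the classical target gene of the response, and Sars as a called synthetase with no match in this window.
Gars: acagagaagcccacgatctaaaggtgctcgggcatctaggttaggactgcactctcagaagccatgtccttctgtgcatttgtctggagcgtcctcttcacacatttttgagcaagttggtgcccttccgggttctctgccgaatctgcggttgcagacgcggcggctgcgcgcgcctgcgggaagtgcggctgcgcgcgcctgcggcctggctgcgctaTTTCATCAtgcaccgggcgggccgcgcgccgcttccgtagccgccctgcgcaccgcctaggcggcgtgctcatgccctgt
Iars: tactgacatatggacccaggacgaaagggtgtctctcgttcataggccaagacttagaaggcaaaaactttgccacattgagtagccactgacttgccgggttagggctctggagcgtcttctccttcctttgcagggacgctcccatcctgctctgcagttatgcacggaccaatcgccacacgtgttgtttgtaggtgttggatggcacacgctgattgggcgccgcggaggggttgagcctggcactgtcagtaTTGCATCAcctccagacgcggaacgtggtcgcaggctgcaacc
Tars: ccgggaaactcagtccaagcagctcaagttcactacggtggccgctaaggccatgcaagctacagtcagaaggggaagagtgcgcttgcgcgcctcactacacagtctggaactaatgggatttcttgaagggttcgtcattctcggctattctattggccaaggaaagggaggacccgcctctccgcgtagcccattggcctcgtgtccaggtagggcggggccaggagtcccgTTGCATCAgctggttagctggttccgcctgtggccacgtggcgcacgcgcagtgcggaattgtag
Asns: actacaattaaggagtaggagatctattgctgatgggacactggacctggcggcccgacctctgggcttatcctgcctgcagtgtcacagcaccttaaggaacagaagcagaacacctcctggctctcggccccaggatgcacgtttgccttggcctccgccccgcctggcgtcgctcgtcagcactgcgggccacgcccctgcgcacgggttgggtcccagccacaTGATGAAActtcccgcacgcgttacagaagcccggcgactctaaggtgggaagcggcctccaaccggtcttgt
Sars: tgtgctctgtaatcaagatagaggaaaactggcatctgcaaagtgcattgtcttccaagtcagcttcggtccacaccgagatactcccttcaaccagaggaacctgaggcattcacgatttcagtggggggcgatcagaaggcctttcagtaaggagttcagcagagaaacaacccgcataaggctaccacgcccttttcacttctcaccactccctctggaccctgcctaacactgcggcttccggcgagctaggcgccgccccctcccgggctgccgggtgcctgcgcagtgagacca
The Gars window is chr6:55037751-55038050 on the plus strand, Iars chr13:49681880-49682179 on the plus strand, Tars chr15:11399609-11399908 on the minus strand, Asns chr6:7693160-7693459 on the minus strand and Sars chr3:108445210-108445509 on the minus strand. The first base of the match lay 30 bases before the start site in Gars, 15 before it in Tars and 23 before it in Asns, and shortly after it in Iars. Of the synthetases on the response list, 8 had a promoter in the table and 5 of these held the motif: Gars, Tars, Iars, Yars and Aars. It was in none of the 6 promoters of other cytosolic genes and in none of the 13 promoters of mitochondrial genes, and 1219 of 27025 RefSeq genes with a promoter held it, or 4.51%. Among the 8 promoters read from the response list, matches did not follow the calls in each gene. Yars and Aars held the motif without a call, and Sars and Mars were called without it. The called genes Cars, Nars, Lars and Vars had no promoter sequence here, so motif and calls could not be compared for them. Of the other amino acid response genes with a promoter 9 of 29 held the motif (31%). Nupr1, Atf3 and Vldlr, which were not called, were among these. A match is a description of the letters and not a binding site, and no match says only that these letters are not in the window.

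Other genes of the amino acid response were higher in L28BME as well. Of 34 such genes, none of them synthetases, 23 were higher and none was lower, with a median log2 fold change of 0.39. By the same test 8.28% of all genes tested were higher and 6.60% were lower, with a median of 0.0033. At an unadjusted limma p under 0.05, 27 of the 34 were higher and 1 was lower (16.0% and 13.7% of all genes tested). This list too was drawn up with earlier results of these data known and is no independent evidence of its direction. Asns, which makes asparagine, was at 249, 238 and 248 TPM in L28BME and at 139, 144 and 142 TPM in ME. All L28BME libraries stood far above ME, by 73.2% of the ME mean (log2 fold change 0.79, SE 0.032, limma adjusted p = 1.57e-04). Chac1, a glutathione-degrading enzyme, was at 16.2, 15.6 and 18.4 TPM in L28BME and at 6.92, 6.60 and 6.80 TPM in ME (log2 fold change 1.19, limma adjusted p = 6.81e-04). Slc1a4, a transporter of alanine, serine, cysteine and threonine, was at 34.5 ± 0.329 TPM in L28BME and 15.03 ± 1.13 TPM in ME (log2 fold change 1.15, limma adjusted p = 4.56e-04). Mthfd2, of mitochondrial folate metabolism, was at 251 ± 3.67 TPM in L28BME and 178 ± 4.04 TPM in ME (log2 fold change 0.49, limma adjusted p = 5.57e-04). Called genes for amino acids whose synthetases rose included these: Psat1 and Shmt2 make serine and glycine (log2 fold changes 0.27 and 0.36), Cth makes cysteine (1.09), Slc7a11 imports cystine (0.65) and Slc7a5 with Slc3a2 imports leucine and other large neutral amino acids (0.36 and 0.24). Genes for amino acids whose synthetases were not called rose too: Aldh18a1 (0.43) and Pycr1 (0.81) for proline and Gpt2 (0.53) for alanine. Phgdh and Psph, of serine synthesis, were not called (limma adjusted p = 0.161 and 0.107). A match by amino acid between the response genes and the synthetases was not tested. The count was 21 or 22 without any 1 library, and the calls of Atf5 and Cebpb were each lost without 5 of the 6 libraries.

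Genes that control the response moved less evenly. Atf4 itself was at 319, 692 and 308 TPM in L28BME and at 621, 636 and 641 TPM in ME. L28BME replicate 2 lay above all ME libraries and replicates 1 and 3 lay far below them, and no call was made (log2 fold change -0.63, limma adjusted p = 0.236). Without L28BME replicate 2 the log2 fold change of Atf4 was -1.01 (limma adjusted p = 6.55e-04). Eif2ak4, which encodes GCN2, was at 37.1, 36.1 and 42.2 TPM in L28BME and at 32.1, 32.4 and 33.4 TPM in ME, without overlap but not called (log2 fold change 0.23, limma adjusted p = 0.0802). Ddit3, the stress factor CHOP, was at 24.0 ± 1.53 TPM in L28BME and 25.5 ± 0.471 TPM in ME (limma adjusted p = 0.404). Of 7 genes around eIF2alpha, namely its 4 kinases, the GCN2 activator Gcn1, eIF2alpha itself (Eif2s1) and the phosphatase subunit Ppp1r15b, only Ppp1r15b was called, as higher (log2 fold change 0.15, limma adjusted p = 0.0322), and that call was lost without any 1 library (limma adjusted p 0.0707 to 0.1002). By the same test 8.28% of all genes tested were called higher and 6.60% lower.

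**Figure D3:**
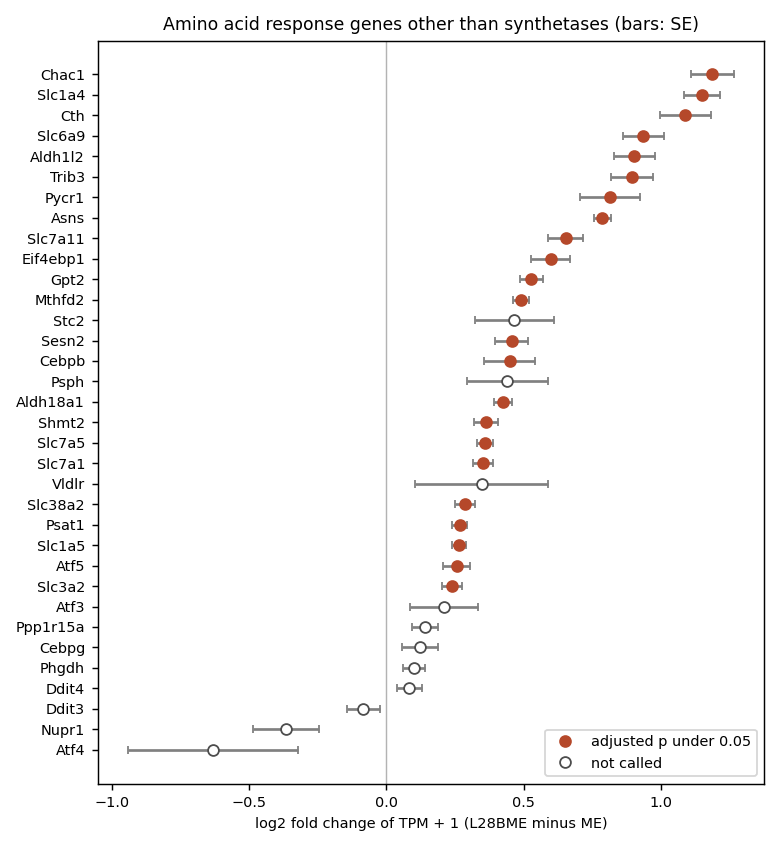
Log2 fold change of TPM + 1 (L28BME minus ME) of 34 amino acid response genes that are not synthetases, with the SE of the limma fit as bars. The 23 filled points, adjusted p under 0.05, all lie right of 0, and Atf4, at -0.63 with the widest bar, is not called.

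Among the mitochondrial synthetases only Cars2 was called. Cars2 charges mitochondrial cysteine tRNA and also makes cysteine persulfides. Its level was 45.5, 44.5 and 49.5 TPM in L28BME and 52.1, 56.3 and 55.6 TPM in ME, so it was lower in each L28BME library than in any ME library (log2 fold change -0.23, SE 0.057, limma adjusted p = 0.0459). The call was kept without L28BME replicate 3 and lost without any other library, with limma adjusted p of up to 0.134. Cars2 shares 422 exonic bases with Naxd on the opposite strand, which was at 84.2 ± 2.68 TPM in L28BME and 78.7 ± 3.14 TPM in ME and was not called.

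The most abundant mitochondrial genes were Iars2 and Tars2, and the groups overlapped for both. Iars2 was at 75.1, 75.9 and 82.7 TPM in L28BME and at 80.1, 83.4 and 78.5 TPM in ME, and Tars2 was at 59.96, 73.8 and 61.5 TPM in L28BME and at 73.1, 56.9 and 69.2 TPM in ME. Fars2, the mitochondrial phenylalanine enzyme, had the largest positive value, at 33.8, 27.8 and 33.0 TPM in L28BME and 20.1, 19.5 and 26.7 TPM in ME. The groups did not overlap, but the spread was wide and the test was not passed (log2 fold change 0.50, limma adjusted p = 0.0636), and without ME replicate 3 the adjusted p was 0.0253. Rars2, for arginine, was at 54.8, 53.7 and 48.3 TPM in L28BME and at 44.5, 45.2 and 45.1 TPM in ME (log2 fold change 0.21, limma adjusted p = 0.0586, and 0.0247 without L28BME replicate 3). Wars2, the least abundant member, was at 3.20, 5.54 and 6.18 TPM in L28BME and at 6.48, 7.55 and 7.28 TPM in ME (log2 fold change -0.47, limma adjusted p = 0.196). Sars2 was at 24.6 ± 0.228 TPM in L28BME and 27.5 ± 0.872 TPM in ME, without overlap or call (log2 fold change -0.16, limma adjusted p = 0.0795), and Hars2 likewise (log2 fold change -0.18, limma adjusted p = 0.219). Pars2 had a log2 fold change of -0.19, which was 0.14 without L28BME replicate 3, the lowest library at 5.34 TPM. The other mitochondrial genes reported were Yars2 (log2 fold change 0.18), Vars2 (0.16), Nars2 (0.03), Aars2 (0.00), Ears2 (-0.04) and Lars2 (-0.07), none of them called and all with overlapping groups. Mars2, read by its gene ID, was at 9.46, 9.14 and 9.01 TPM in L28BME and at 8.23, 7.66 and 8.06 TPM in ME and was not called (log2 fold change 0.18, limma adjusted p = 0.126).

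Setting each mitochondrial enzyme beside the cytosolic enzyme for the same amino acid gave 18 pairs, and in 14 of them the cytosolic gene had the higher log2 fold change. Some genes stand in more than a single pair, since Eprs serves glutamate and proline, Farsa and Farsb share Fars2, and Tars and Tarsl2 share Tars2. By the difference of log2 fold changes the pair for cysteine stood first (0.80), close to that for tryptophan (0.76). The ratio of Wars to Wars2 was 29.8, 10.6 and 11.4 in L28BME and 9.06, 7.82 and 8.50 in ME, with L28BME replicate 1 far above the rest and neither gene called. The ratio of Cars to Cars2 was 3.21, 3.21 and 3.09 in L28BME and 1.96, 1.74 and 1.74 in ME, with the cytosolic gene called higher and the mitochondrial gene called lower. For serine the ratio of Sars to Sars2 was 7.10 ± 0.135 in L28BME and 4.57 ± 0.142 in ME. Phenylalanine went the other way, with a ratio of Farsa to Fars2 of 6.07 ± 0.595 in L28BME and 10.04 ± 2.09 in ME. Arginine did so too, with a ratio of Rars to Rars2 of 4.12 ± 0.420 in L28BME and 4.77 ± 0.160 in ME. The ratios did not overlap between groups in 9 of the 18 pairs, among them Farsa with Fars2 and Rars with Rars2, whose ratios were lower in L28BME. No such share was computed for ratios of other genes, and 36.7% of single genes tested had no overlap. An exact permutation test of 3 against 3 libraries cannot give a two-sided p under 0.1, so no pair could pass a threshold of 0.05 on its own, and the difference between the classes was not tested.

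**Figure D4:**
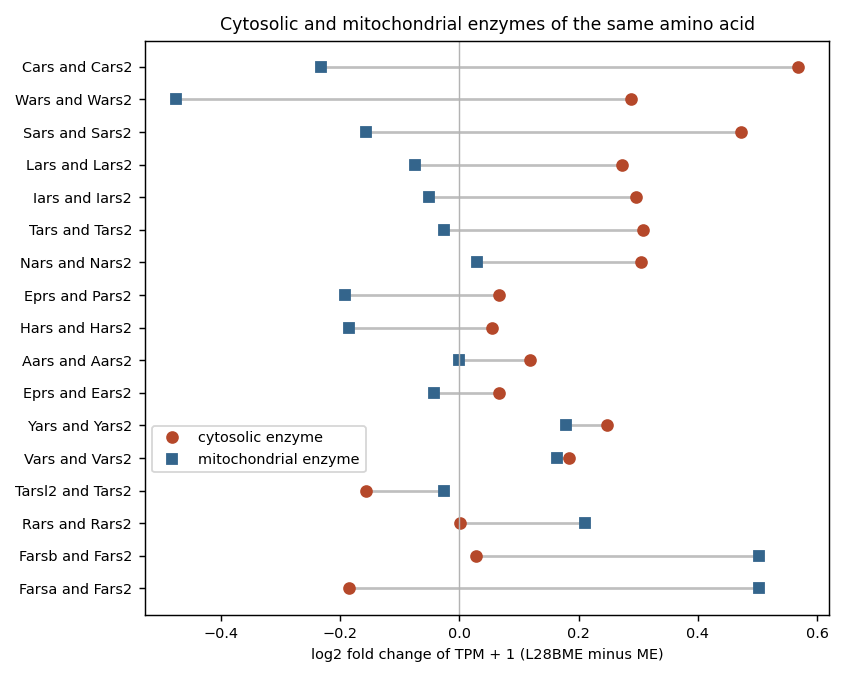
Log2 fold change of TPM + 1 (L28BME minus ME) of the cytosolic gene (circle) and the mitochondrial gene (square) for the same amino acid in 17 of the 18 pairs, ordered by the difference. In 13 of the pairs plotted the circle lies right of the square, with the widest gap on this scale in the pair for cysteine (0.57 for Cars and -0.23 for Cars2).

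Because LIN28B blocks let-7, the annotated 3′ UTRs of the synthetases were read for CTACCTC, which pairs with the let-7 seed (bases 2 to 8, in capitals).
let-7a-5p: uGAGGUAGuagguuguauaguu
Qars site: aatacatgtggccCTACCTCatc
The site of Qars, chr9:108515864-108515870 on the plus strand of GRCm38, is shown as the only cytosolic one and is followed by A. None of the 9 synthetases that were higher in L28BME held a site. Of the 37 genes 5 did (13.5%): Qars, and of the mitochondrial genes Aars2, Lars2, Pars2 and Wars2. Of 21028 protein-coding genes with a 3′ UTR 1999 held a site, or 9.51%. None of the 5 synthetases with a site was called, and their log2 fold changes ran from -0.47 for Wars2 to 0.33 for Qars.

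Lists of genes that act beside the synthetases held few calls. Of 34 genes of tRNA processing and modification none was called higher and 1 was called lower by limma, where 2 were higher and 4 were lower at an unadjusted p under 0.05. None of 24 genes of tRNA transcription was called by limma, where 2 were lower and none was higher at an unadjusted p under 0.05. Both lists thus lay below the 16.0% higher and 13.7% lower of all genes tested at that threshold. Of 19 genes of mitochondrial translation Gfm1, a mitochondrial elongation factor, was lower (log2 fold change -0.15, limma adjusted p = 0.0477). Of 13 genes for editing of mischarged tRNA and related steps Ptrh2, a peptidyl-tRNA hydrolase, was lower (log2 fold change -0.27, limma adjusted p = 0.0118). Of 8 genes of cytosolic elongation Eef1g, a subunit of the factor that recharges eEF1A, was higher (log2 fold change 0.12, limma adjusted p = 0.0285). Ptrh2 kept its call without any 1 library, at limma adjusted p of up to 0.0481, while Gfm1 and Eef1g lost theirs without any 1 of the 6. In these lists the shares called lay at or below the 8.28% higher and 6.60% lower of all genes tested, except for the 1 of 8 elongation genes and the 1 of 13 editing genes.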

How the data were processed

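Per the labels, total RNA came from a Norgen kit for single-cell RNA and the libraries from TruSeq Stranded mRNA reagents. The submitters' processing notes list GRCm38 and the tools bcl2fastq, HISAT2, StringTie and DESeq2, without versions or the use of strand. The values deposited by the authors are TPM per gene and library, so depth is unknown and no count model was used here. Percent GC per gene, likewise deposited by the authors, served for a GC correction. The deposited file held 60496 rows for 55471 gene IDs, with 431 IDs listed more than once and 15 symbols in date form.

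Genes with at least 1 TPM in at least 3 of 6 libraries were tested as log2(TPM + 1) with limma 3.58.1 (R 4.3.3), with an intensity trend, on the 2 groups without covariates, with two-sided p-values corrected after Benjamini and Hochberg over 13348 genes. Fold changes on this scale understate those of low genes. The script was tested on simulated data. The rule named every synthetase, with all values for called genes and for those of highest mean TPM in each class (3 each). Of each other list, up to 4 genes with the smallest p and genes described by role could be named. Further genes were chosen after their values were seen. A few genes that the rule selects are counted but not reported here by name. The synthetases and lists were chosen with earlier results of these data known. Gene positions, exon overlaps and 3′ UTRs came from GENCODE for GRCm38, which held all 37 IDs, and promoters and miRNAs from RefSeq. Alternatives changed the pseudocount, the filter, the scaling, limma's trend and robust options or the threshold, or used a replicate term, removal of a GC trend, protein-coding genes only, summed overlapping models and leaving out each library. Other tools were Python 3.11.15, numpy 2.4.6, pandas 2.3.3, matplotlib 3.10.9, data.table (version 1.17.8) and rtracklayer 1.62.0.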

Additional observations from a re-analysis of the deposited data

How the results depend on the processing

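The calls of Cars, Sars, Gars and Tars held under every alternative run. Without any filter the lower synthetase count, the mitochondrial one included, was 0, and in the remaining lists, those other than the amino acid response list, 1 gene was higher and 1 lower, where the reported counts were 2 and 3. Without the intensity trend the lower synthetase count was 0 and the remaining lists held 0 higher genes. With a replicate block 548 genes were higher and 400 lower over the whole table, 0 synthetases were lower, and in the remaining lists 0 genes were higher and 1 lower, while 6 synthetases were higher. Same-numbered libraries did not deviate together (correlations -0.032, -0.074 and -0.052), so the numbers were not treated as pairs. With the GC trend removed, or protein-coding genes only, 1 mitochondrial gene, Rars2, was higher. With overlapping gene models summed the cytosolic median was 0.24. That median is the value of Aars summed with Exosc6, where Aars alone was at 0.12, and it depends on L28BME replicate 1. At adjusted p under 0.01, 449 genes were higher and 332 lower; 4 synthetases, all cytosolic and on the response list, were higher, 0 were lower, 21 genes of the amino acid response list were higher, and in the remaining lists 0 genes passed either way. The cause of the other shifts was not tested, apart from the stricter threshold itself.

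Leaving out each library gave 617 to 693 higher and 461 to 582 lower genes, 4 to 10 higher and 0 to 1 lower synthetases, 4 to 9 higher cytosolic genes, 0 to 1 higher and 0 to 1 lower mitochondrial genes, and 4 to 8 higher synthetases of the response list. Of the other response genes 21 to 22 were higher and 0 to 1 lower, namely Atf4 without L28BME replicate 2. In the remaining lists 0 to 1 were higher and 1 to 2 lower. Class medians lay between 0.17 and 0.20 (cytosolic) and between -0.031 and -0.0091 (mitochondrial). Log2 fold changes turned sign for some synthetases that were not called. With median-ratio scaling Rars was at -0.0043, and with a rescaling without mitochondrially encoded RNA Aars2 was at 0.0053. Over the fits without 1 library Rars lay between -0.091 and 0.050, Nars2 between -0.014 and 0.053, Aars2 between -0.063 and 0.076, Tars2 between -0.13 and 0.046, Ears2 between -0.16 and 0.066 and Pars2 between -0.37 and 0.14. With depth unknown, no counting error could be given for the least abundant genes, such as Wars2 and Pars2.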
